A study of Mus musculus with 4 samples.

Results

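Polycomb repressive complex 2 (PRC2) was followed through its 10 subunit genes Ezh1, Ezh2, Suz12, Eed, Jarid2, Mtf2, Phf19, Phf1, Rbbp4 and Rbbp7, of 18194 genes named on the array. Every probe set whose only gene symbol in the platform annotation was one of these names was taken, which gave 31 of 34958 single-symbol probe sets. The arrays held murine embryonic stem cells (CM7/1) made to overexpress Hey2 or Hey1, repressors of the basic helix-loop-helix class that act downstream of Notch receptors. The groups were Hey2 induced (1000 ng/ml doxycycline for 48 h), Hey2 uninduced, Hey1 induced (the same doxycycline treatment) and Hey1 uninduced, with 1 single-colour Affymetrix array of total RNA in each, with no replicates by the submitters' own account. None of the 4 arrays held doxycycline-treated cells without an introduced Hey gene, so doxycycline and the factor cannot be told apart. The labels do not say whether each line is a single clone or which promoter drives the introduced gene.

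PRC2 places methyl groups on lysine 27 of histone H3, a mark of repressed developmental genes. Its core holds a methyltransferase, EZH2 or its paralogue EZH1, together with SUZ12, EED and a histone-binding protein, RBBP4 or RBBP7. The core joins with accessory proteins in alternative forms: a Polycomb-like protein (PHF1, MTF2 or PHF19) in one form, JARID2 with AEBP2 in another. Embryonic stem cells express the complex strongly and can self-renew without it, but they then differentiate poorly.

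The values were log2 probe set summaries made by RMA, and all arrays had the same distribution of values, which hides any shift shared by every gene. The brightest probe set on average stood for each gene (its representative), and genes with a value of at least 6.05, the overall median, on any of the 4 arrays were kept. There were 12098 such genes, all 10 PRC2 genes among them, and 28 of the 31 PRC2 probe sets reached that level. The probe set of Hey1 read 6.51 in induced and 6.73 in uninduced cells of the Hey1 line, and that of Hey2 read 4.34 in induced and 4.25 in uninduced cells of the Hey2 line. The introduced genes were therefore not seen at their own probe sets, and "induced" below means the array so labelled. All 12 stem cell markers were well above the filter (10.9 or higher), and their summed level had a range of 16.70 to 16.76 on the log2 scale. Single markers differed by more than that sum. Nanog was lower in the Hey2 than in the Hey1 line, by 0.54 in uninduced and 0.36 in induced cells. Induced minus uninduced was 0.61 for Klf4 and 0.55 for Tfcp2l1 in the Hey2 line, and -0.13 and 0.035 in the Hey1 line. Its median over the 12 was -0.00074 in the Hey2 line (6 above 0) and -0.012 in the Hey1 line (5 above 0). Few markers of fibroblasts (2 of 10), endoderm (3 of 8) and trophoblast (1 of 6) reached the filter, while 4 of 5 mesoderm and 5 of 6 neuroectoderm markers did. The 3' minus 5' difference (log2) of the transferrin receptor controls, which reflects RNA integrity, was 0.96 in Hey2 induced, 0.67 in Hey2 uninduced, 0.84 in Hey1 induced and 0.95 in Hey1 uninduced cells. On the arrays in that order it was 0.42, 0.39, 0.51 and 0.48 for beta-actin and 0.032, 0.012, 0.042 and 0.040 for Gapdh. Both of these controls were lower on the Hey2 than on the Hey1 arrays. Pyruvate carboxylase, at 1.56, 1.33, 1.43 and 1.38, did not have that order of lines, nor did the transferrin receptor.

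The windows around the start sites of the PRC2 genes (250 bases before to 50 after, RefSeq, mouse build GRCm38.p6) were searched on both strands for CACGTG and CACGCG, sequences known to be bound by Hey factors, and for TTTGGCGC and TTTCCCGC, sequences of the kind bound by E2F factors. CACGCG stood in 6 of the 12 windows of the members (those of Ezh1, Ezh2, Jarid2, Phf1, Rbbp4 and Suz12), against 9.27% of all 32851 windows. CACGTG stood in 1, that of Rbbp4, against 7.15% of all windows. TTTGGCGC was in the Ezh2 window (0.514% of all windows) and TTTCCCGC in those of Suz12 and Phf19 (1.07%), and no matches overlapped. The windows of the members held between 2 (the second Mtf2 window) and 41 (Suz12) CG dinucleotides, against a median of 7 over all windows, and CACGCG itself contains CG. A match is a description of the letters and not a site of binding. Of the windows printed, Ezh2 holds both kinds of motif, Rbbp4 is the single member with CACGTG, and Jarid2 and Mtf2 are the genes whose several probe sets set the lines or 1 array apart. Matches are in capitals, and the Mtf2 window holds none. They lie on chr6:47594981-47595280 (minus strand) for Ezh2, chr4:129335321-129335620 (minus strand) for Rbbp4, chr13:44730524-44730823 (plus strand) for Jarid2 and chr5:108065424-108065723 (plus strand) for Mtf2.
Ezh2: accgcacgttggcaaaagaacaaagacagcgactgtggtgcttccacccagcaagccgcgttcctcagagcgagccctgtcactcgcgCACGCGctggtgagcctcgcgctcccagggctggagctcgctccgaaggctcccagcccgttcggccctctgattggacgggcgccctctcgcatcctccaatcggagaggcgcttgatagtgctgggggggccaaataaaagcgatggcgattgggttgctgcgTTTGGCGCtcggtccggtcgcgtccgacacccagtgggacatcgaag
Rbbp4: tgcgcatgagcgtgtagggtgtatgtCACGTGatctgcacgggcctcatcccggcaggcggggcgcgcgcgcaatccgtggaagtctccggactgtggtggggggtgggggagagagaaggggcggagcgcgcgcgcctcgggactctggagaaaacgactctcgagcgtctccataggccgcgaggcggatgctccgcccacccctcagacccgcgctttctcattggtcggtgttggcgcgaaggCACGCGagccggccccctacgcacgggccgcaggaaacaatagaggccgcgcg
Jarid2: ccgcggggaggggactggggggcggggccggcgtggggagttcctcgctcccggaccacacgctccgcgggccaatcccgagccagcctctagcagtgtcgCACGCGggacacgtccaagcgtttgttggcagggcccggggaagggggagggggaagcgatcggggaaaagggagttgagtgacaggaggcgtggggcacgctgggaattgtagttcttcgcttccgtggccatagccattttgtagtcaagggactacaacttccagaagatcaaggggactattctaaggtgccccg
Mtf2: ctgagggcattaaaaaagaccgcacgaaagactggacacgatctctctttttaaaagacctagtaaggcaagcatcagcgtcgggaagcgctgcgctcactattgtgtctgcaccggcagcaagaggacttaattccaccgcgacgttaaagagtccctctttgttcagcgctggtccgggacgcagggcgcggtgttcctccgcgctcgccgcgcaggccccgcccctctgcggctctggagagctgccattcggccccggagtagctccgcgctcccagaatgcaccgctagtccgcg

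Differences on induction were small for the PRC2 genes in both lines, as they were for most genes. Of the 10, 0 differed by 1.5-fold or more in the Hey2 line, where 5.48% of all genes compared did (0.926% by 2-fold). In the Hey1 line 0 did as well, against 2.42% of all genes (0.471% by 2-fold), and counts of 0 in 10 are near these shares. The median absolute difference was 0.11 for the members and 0.15 for all genes in the Hey2 line, and 0.092 for the members and 0.11 for all genes in the Hey1 line. The difference, induced minus uninduced, lay between -0.11 and 0.27 in the Hey2 line and between -0.15 and 0.11 in the Hey1 line on the log2 scale. Its median over the 10 genes was 0.097 in the Hey2 line, against -0.022 over all genes, and 0.075 in the Hey1 line, against -0.012 over all genes. In the Hey2 line 7 of the 10 were above 0 (45.6% of all genes were), and in the Hey1 line 6 of the 10 (46.8%). Ezh2, Eed, Jarid2, Phf19 and Rbbp7 were above 0 in both lines (28.1% of all genes), Ezh1 and Rbbp4 below 0 in both (35.5%), and Suz12, Mtf2 and Phf1 had opposite signs. Averaging probe sets within genes, which dropped Ezh1 below the filter, gave medians over the other 9 of 0.029 (Hey2 line) and 0.039 (Hey1 line). Set against the other line's uninduced array, the 10 genes had medians of 0.042 (Hey2 induced) and -0.061 (Hey1 induced). Those contrasts cross the lines and include the difference between the uninduced arrays. With 1 array per group these differences within a line have no replicate check and no p-value. In RNA from whole cultures, fewer cells of a type and less RNA per cell cannot be told apart.

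**Figure D1:**
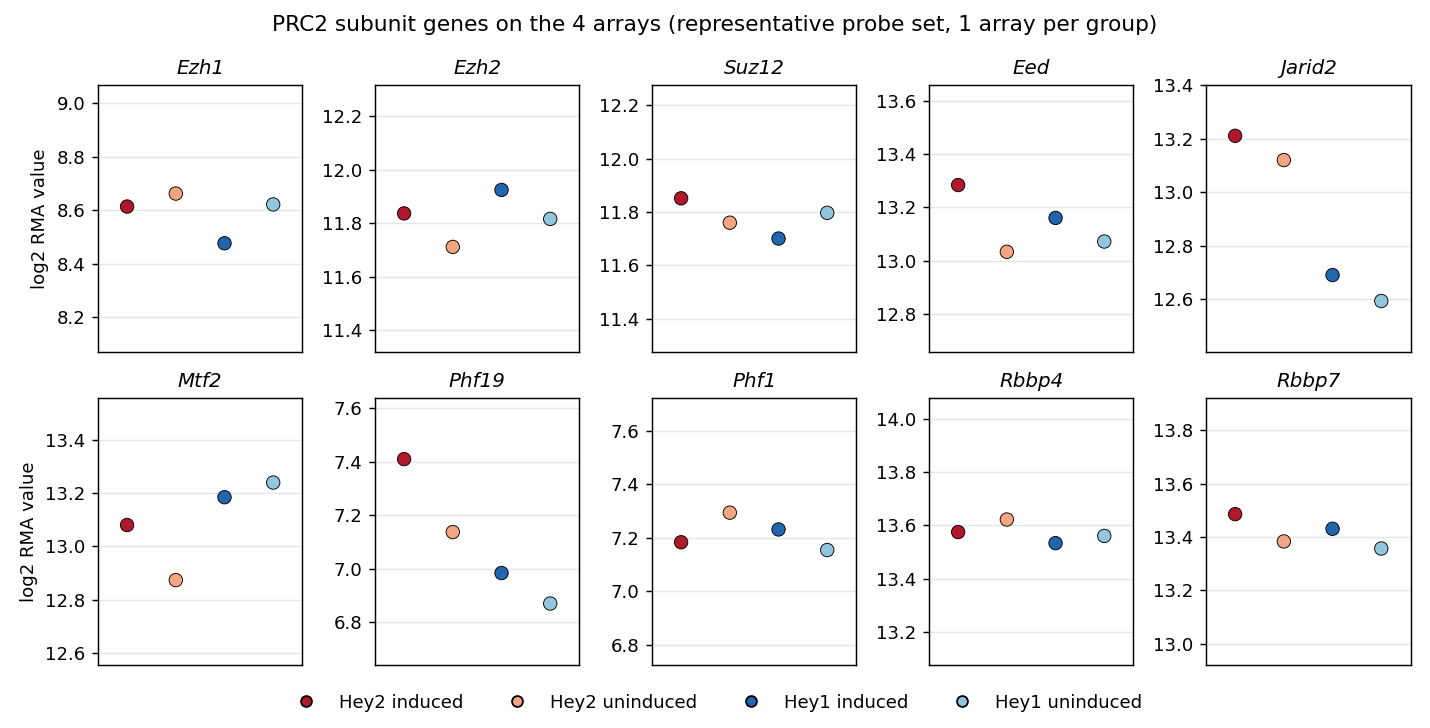
Log2 RMA value of the representative probe set of each PRC2 gene (y axes, each spanning 1 log2 unit) on the 4 arrays, 1 point per array. Jarid2 separates the lines, Mtf2 is lowest in Hey2 uninduced cells, and Rbbp4 stays within 0.088 on all arrays.

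The response common to both lines was tested with limma across all 12098 genes, with line as a block, which leaves 1 residual degree of freedom per gene. The lines carry different introduced genes, so any difference between the responses to Hey2 and Hey1 counts as error in this fit. Nothing in the labels says that the arrays came from separate cultures, so the p-values reflect nothing beyond the spread of these 4 samples. No PRC2 gene passed an adjusted p of 0.05, and neither did any other gene (0% called). At an unadjusted p of 0.05, 0 PRC2 genes and 1598 of all genes (13.2%) passed. The lowest adjusted p among the members was that of Phf19 (0.431 by limma). Across the alternatives tried, the adjusted p-values of the members in this comparison never went below 0.102, so no setting called one. Missing the threshold does not show that a gene did not differ, since the SE of each member was 0.080 or more, as large as many of the differences.

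The methyltransferase genes differed by little on induction, and their probe sets gave no shared direction. Ezh2, the main catalytic subunit of proliferating cells, has a single probe set, which read 11.84 in Hey2 induced, 11.71 in Hey2 uninduced, 11.92 in Hey1 induced and 11.82 in Hey1 uninduced cells. Both induced values lay above both uninduced ones, but 12.6% of all genes had that order. The mean difference was 0.12 ± 0.080 on the log2 scale (moderated SE, 2 lines), with an adjusted p of 0.562 by limma. Its absolute difference exceeded that of 44.1% of all genes in the Hey2 line and of 50.6% in the Hey1 line, near the middle of the distribution. The CACGCG match printed above is in its window, as are those of Jarid2 and Rbbp4, and no binding was measured here.

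Ezh1, the paralogue with weaker catalytic activity, gave opposite pictures at its probe sets. Its representative probe set read 8.61 in Hey2 induced, 8.66 in Hey2 uninduced, 8.48 in Hey1 induced and 8.62 in Hey1 uninduced cells. Both induced values were below both uninduced ones there, an order found in 18.3% of all genes. At its second probe set above the filter the values were 6.55 and 6.41 in induced and uninduced Hey2 cells and 6.63 and 6.34 in induced and uninduced Hey1 cells. That probe set was higher on both induced arrays, by 0.14 and 0.29. Its remaining 2 probe sets stayed below the filter, also with higher values on the induced arrays, by 0.092 to 0.22. The mean difference at the representative probe set was -0.097 ± 0.084 (moderated SE, 2 lines), with an adjusted p of 0.637 by limma. No direction can therefore be given for Ezh1.

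Suz12, which holds the core together, had 6 probe sets above the filter and no common direction. The representative one read 11.85 in Hey2 induced, 11.76 in Hey2 uninduced, 11.70 in Hey1 induced and 11.80 in Hey1 uninduced cells. Over its 6 probe sets the difference had a range of -0.20 to 0.091 in the Hey2 line, with 3 above 0, and of -0.22 to 0.22 in the Hey1 line, with 1 above 0. The mean of the lines at the representative probe set was -0.0024 ± 0.093, with an adjusted p of 0.992 by limma.

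Eed, the subunit that binds trimethylated lysine 27 and stimulates the enzyme, was higher on both induced arrays. It read 13.28 in Hey2 induced, 13.03 in Hey2 uninduced, 13.16 in Hey1 induced and 13.07 in Hey1 uninduced cells. The difference was 1.19-fold in the Hey2 line, where 69.6% of all genes had a smaller absolute difference, and 1.06-fold in the Hey1 line. The mean was 0.17 ± 0.090 on the log2 scale (moderated SE, 2 lines), with an adjusted p of 0.476 by limma. Its other probe set stayed below the filter on all arrays, with differences of -0.18 and -0.0096.

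The histone-binding subunit genes Rbbp4 and Rbbp7, paralogues whose proteins also serve in deacetylase and chromatin assembly complexes, varied least. Rbbp4 read 13.57 in Hey2 induced, 13.62 in Hey2 uninduced, 13.53 in Hey1 induced and 13.56 in Hey1 uninduced cells, the narrowest range of the 10 genes. Its other probe sets lay within 0.080 of no difference in both lines, except the dimmest, which read 8.74 in Hey1 induced and 9.11 in Hey1 uninduced cells (-0.36, against 0.044 in the Hey2 line). Rbbp7 read 13.49 in Hey2 induced, 13.38 in Hey2 uninduced, 13.43 in Hey1 induced and 13.36 in Hey1 uninduced cells. Both induced values of Rbbp7 were the higher ones, but its other probe set had 0.26 for the Hey2 line and -0.020 for the Hey1 line. The adjusted p-values by limma were 0.853 for Rbbp4 and 0.655 for Rbbp7. The names of both representative probe sets end in _x_at, which marks probes that can match other transcripts too.

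The probe sets of a gene were compared for the 7 members with more than 1 probe set above the filter. In the Hey2 line the probe sets of 2 of them, Mtf2 and Rbbp7, lay on a single side of 0, where 55.7% of 5378 genes with several probe sets did. In the Hey1 line those of 2 of them, Jarid2 and Rbbp4, did, where 50.4% of genes did. The differences of a gene's probe sets spread over a median of 0.19 for the members and 0.21 for all such genes in the Hey2 line, and of 0.34 for the members and 0.18 for all such genes in the Hey1 line. The members' spread of 0.34 in the Hey1 line exceeded the absolute difference of every member there, and that of 0.19 in the Hey2 line exceeded those of 7 of the 10. The 7 members had from 2 to 6 probe sets each. Spread and agreement both depend on that number, and the genes set beside them were not matched for it.

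**Figure D2:**
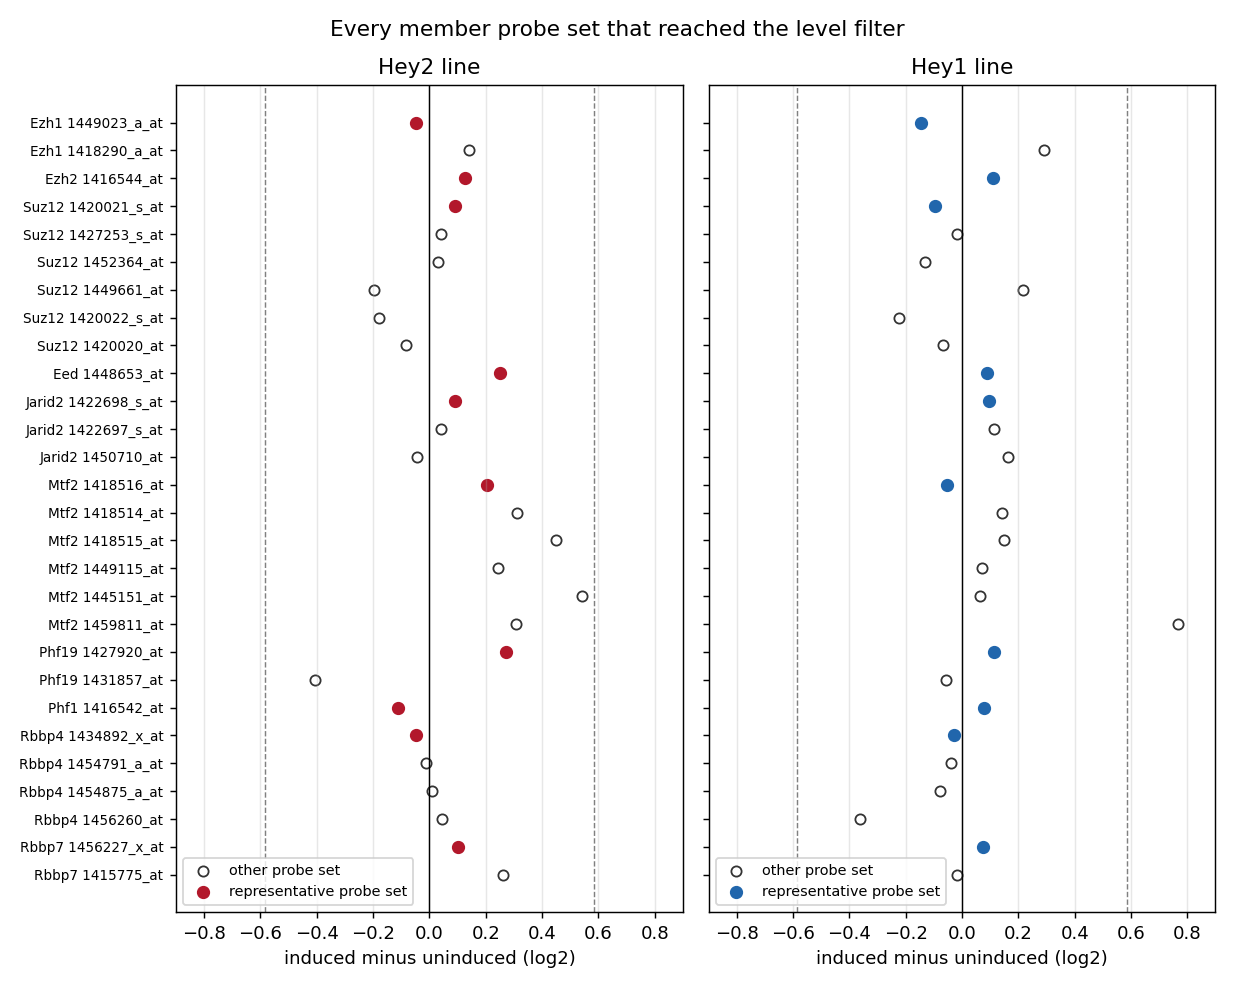
Induced minus uninduced (x axes, log2) at each of the 28 PRC2 probe sets that reached the filter (rows), in the Hey2 line (left) and the Hey1 line (right). Filled points are the representative probe sets, and the dashed lines mark 1.5-fold, which 1 probe set of Mtf2 passes in the Hey1 line.

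Mtf2, a Polycomb-like subunit that binds DNA rich in unmethylated CG and brings the complex to it, had higher values on the induced array at every probe set in the Hey2 line. Its representative probe set read 13.08 in Hey2 induced, 12.87 in Hey2 uninduced, 13.18 in Hey1 induced and 13.24 in Hey1 uninduced cells. The Hey2 uninduced array gave the lowest of the 4 values at 5 of its 6 probe sets. All 6 probe sets were higher in induced than in uninduced Hey2 cells, by 0.21 to 0.54. In the Hey1 line 5 of the 6 were higher in induced cells, but the representative one was lower by 0.055, and the mean of the probe sets gave 0.19. The largest single difference, 0.77 at its dimmest probe set, rests on values of 6.90 in Hey1 induced and 6.14 in Hey1 uninduced cells, close to the filter. The 4 brightest probe sets were designed from 1 accession, so they are not independent readings. The mean of the lines at the representative probe set was 0.076 ± 0.10 (moderated SE, 2 lines), with adjusted p 0.767 by limma. Without the Hey2 uninduced array and without a block it was -0.11, and without the Hey1 uninduced array 0.26.

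The Hey2 uninduced array also had the lowest value at every RNA control given above: transferrin receptor, pyruvate carboxylase, beta-actin and Gapdh. Its summed level of the 5 mesoderm markers was the highest (9.23, against 8.82 to 8.92 on the other arrays). The part of these controls and markers in the result was not tested. Set against the Hey1 uninduced array instead, Mtf2 on the Hey2 induced array differed by -0.16 in place of 0.21. That contrast crosses the lines and includes the difference between the uninduced arrays (-0.37). It therefore cannot show which uninduced array sets the direction.

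Phf19 and Phf1, the other Polycomb-like genes, had values near the filter. Phf19, a paralogue of Mtf2, read 7.41 in Hey2 induced, 7.14 in Hey2 uninduced, 6.98 in Hey1 induced and 6.87 in Hey1 uninduced cells. Its difference of 0.27 in the Hey2 line was the largest of the 10 genes there, and 72.9% of all genes had a smaller absolute difference. At its other probe set the values were 6.61 in induced and 7.02 in uninduced Hey2 cells (-0.41) and 6.63 in induced and 6.69 in uninduced Hey1 cells (-0.057). The probe sets thus ran in opposite directions in each line. Phf1 has a single probe set, which read 7.18 in Hey2 induced, 7.29 in Hey2 uninduced, 7.23 in Hey1 induced and 7.15 in Hey1 uninduced cells, with an adjusted p of 0.945 by limma.

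**Figure D3:**
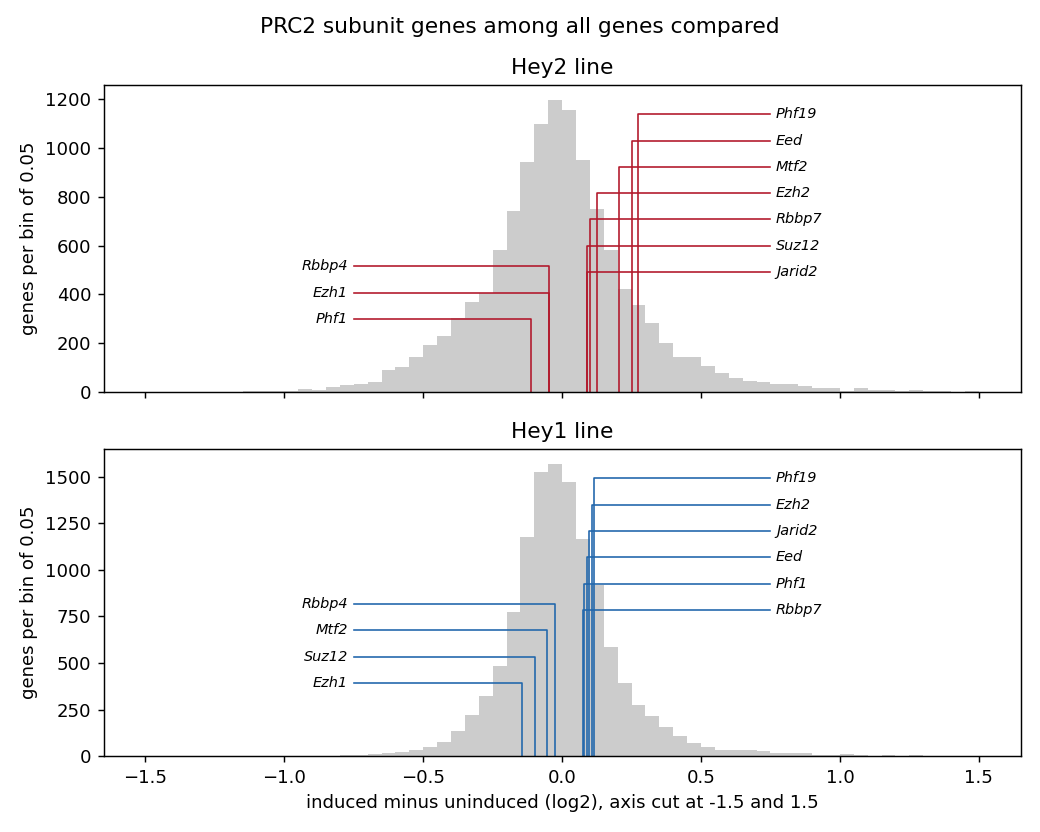
Histograms of induced minus uninduced (x axes, log2) over all 12098 genes compared (y axes, genes per bin of 0.05) in the Hey2 line (upper) and the Hey1 line (lower), with the PRC2 genes as lines drawn from the axis. All 10 lie in the central part of both distributions, between -0.11 and 0.27 in the Hey2 line and between -0.15 and 0.11 in the Hey1 line.

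The largest differences among the members were between the lines. Jarid2, the accessory subunit that recruits the complex to its targets in stem cells, was higher in both Hey2 arrays than in both Hey1 arrays. Its representative probe set read 13.21 in Hey2 induced, 13.12 in Hey2 uninduced, 12.69 in Hey1 induced and 12.59 in Hey1 uninduced cells. Between the lines it differed 1.44-fold both in induced and in uninduced cells. Of all genes compared, 91.1% had a smaller absolute difference between the induced arrays and 88.6% between the uninduced arrays. Its other probe sets had the same order of lines, but all were designed from the same sequence record, so they are not independent readings. The next brightest read 12.64 and 12.60 in induced and uninduced Hey2 cells and 12.16 and 12.05 in induced and uninduced Hey1 cells. At the dimmest the values were 11.86 and 11.91 in induced and uninduced Hey2 cells and 11.34 and 11.18 in induced and uninduced Hey1 cells. The brighter probe sets, the representative among them, have names ending in _s_at, which an alternative left out together with _x_at ones. The dimmest does not, and it differed between the lines by 0.52 in induced and 0.73 in uninduced cells.

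The limma fit of the lines had induction as a block. In it the Hey2 line exceeded the Hey1 line for Jarid2 by 0.52 ± 0.080 (log2, moderated SE, 2 pairs of arrays). Its adjusted p was 0.0613, just outside the threshold of 0.05, and over the alternatives it had a range of 9.46e-06 to 0.452. The difference was positive under all 13 alternatives, from 0.48 to 0.62, and passed under 4 of them. Under those 4 the genes called numbered 554 of 10956, 1127 of 12098, 1864 of 7355 and 2933 of 12098. In its main setting the fit called 111 of all genes, 65 higher (0.537%) and 46 lower (0.38%) in the Hey2 line (0.918% together), and 0 members. At an unadjusted p of 0.05 it called 3422 (28.3%). At that unadjusted p, 2 members passed, Jarid2 (0.0030) and Phf19 (0.0186). Induction left Jarid2 nearly in place, with differences of 0.091 for the Hey2 line and 0.097 for the Hey1 line. Comparisons between and within lines share arrays and are not independent of each other. The summed level of the 10 fibroblast markers was 8.70 in Hey2 induced, 8.80 in Hey2 uninduced, 9.17 in Hey1 induced and 8.999 in Hey1 uninduced cells. That order came from Thy1, a surface protein of fibroblasts and other cells, with 5.73 in Hey2 induced, 5.51 in Hey2 uninduced, 7.80 in Hey1 induced and 7.13 in Hey1 uninduced cells. Without Thy1 the sum was 8.50 in Hey2 induced, 8.65 in Hey2 uninduced, 8.46 in Hey1 induced and 8.54 in Hey1 uninduced cells, and the lines no longer differed in that order. Thy1 reached the filter on the Hey1 arrays alone, so its difference is given without a test. Of the other marker genes compared, only Sox1, of the neuroectoderm, passed the test of the lines (adjusted p 0.0469 by limma). It was lower in the Hey2 line. The part of Thy1, of Sox1 and of the beta-actin and Gapdh controls given above in the difference of Jarid2 was not tested.

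Between the induced arrays 0 members differed by 1.5-fold (6.71% of all genes, 1.61% by 2-fold), and 7 of 10 were above 0 (47.2%), with a median of 0.089. Between the uninduced arrays 0 did (8.92%, and 1.96% by 2-fold), and 6 of 10 were above 0 (53.7%), with a median of 0.034. With such shares fewer than 1 of 10 genes would reach 1.5-fold, so the counts of 0 say nothing particular about PRC2. All probe sets lay on a single side of 0 for Jarid2, Mtf2 and Rbbp7 between the induced arrays (60.4% of genes with several) and for Ezh1, Jarid2 and Phf19 between the uninduced arrays (64.2%).

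**Figure D4:**
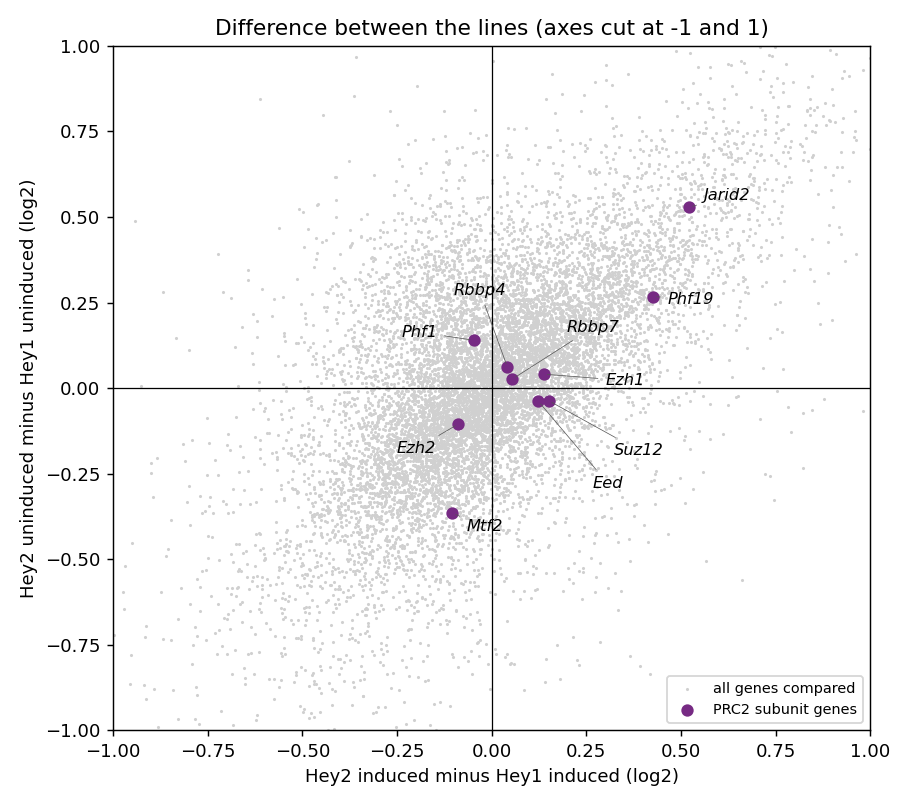
Hey2 minus Hey1 (log2) in induced cells (x axis) and in uninduced cells (y axis) for the 10 PRC2 genes (purple) and all genes compared (grey), with axes cut at -1 and 1. Jarid2 lies at 0.52 and 0.53, Phf19 at 0.43 and 0.27, and Mtf2 at -0.10 and -0.37.

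Phf19 had the next largest difference between the lines, 0.35 ± 0.089 higher in the Hey2 line (moderated SE, 2 pairs of arrays). Its adjusted p was 0.110 by limma. Its other probe set was higher in Hey2 uninduced than in Hey1 uninduced cells, by 0.33, but not between the induced arrays (-0.019). Mtf2 was lower in the Hey2 line by 0.23 ± 0.10, with an adjusted p of 0.237 by limma. Between the uninduced arrays 5 of its 6 probe sets were lower in the Hey2 line, and between the induced arrays all 6 were, by 0.039 to 0.30. The other 7 members differed between the lines by at most 0.15 in induced and 0.14 in uninduced cells. Both Hey2 values lay above both Hey1 values for Jarid2, Phf19 and Rbbp4, an order found in 27.4% of all genes, and below them for Mtf2 (26.6%).

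**Figure D5:**
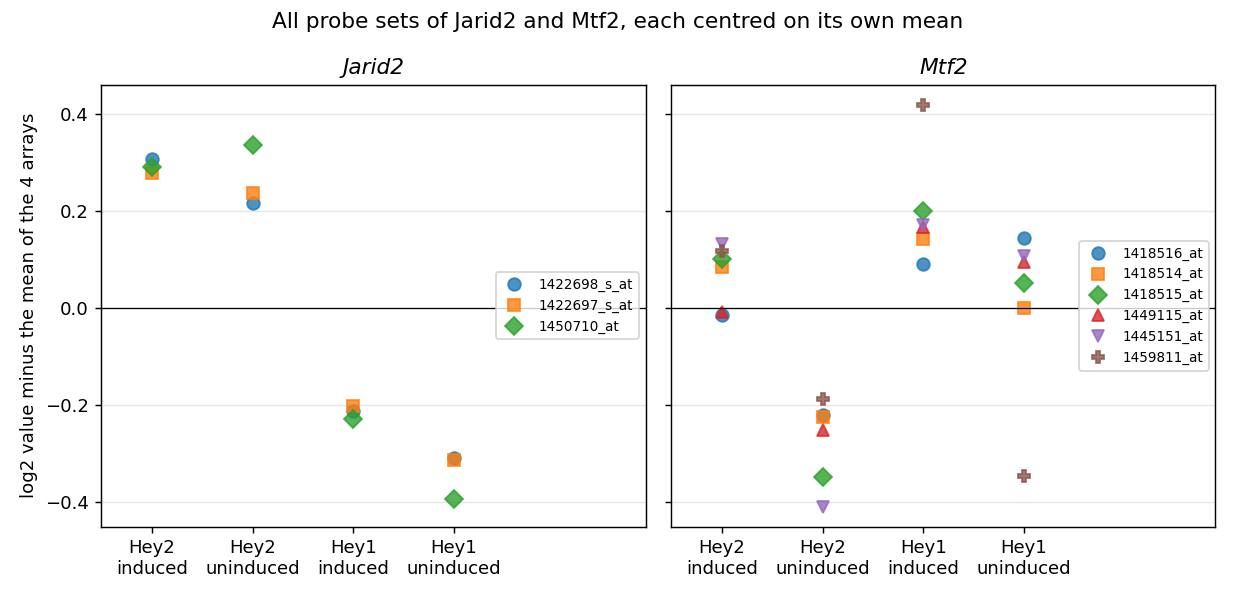
Values of all 3 Jarid2 and all 6 Mtf2 probe sets on the 4 arrays (x axes), each minus its own mean over the arrays (y axis, log2). The Jarid2 probe sets separate the Hey2 from the Hey1 arrays, and 5 of 6 Mtf2 probe sets are lowest in Hey2 uninduced cells.

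The genes next to Jarid2 on chromosome 13 had no shared direction between the lines. Over the 5 compared genes on each side the Hey2 minus Hey1 difference had a median of 0.076 in induced and 0.0077 in uninduced cells, and over all 414 compared genes of that chromosome of -0.030 and -0.012. Single neighbours differed in both directions, with a median absolute difference of 0.15 in induced and 0.22 in uninduced cells, against 0.17 and 0.20 over all genes. Sirt5, the neighbour with the largest differences, was lower in the Hey2 line by 0.59 in induced and by 0.60 in uninduced cells. Ranbp9, among those neighbours, had the same pattern as Jarid2, with 9.92 in Hey2 induced, 9.83 in Hey2 uninduced, 9.42 in Hey1 induced and 9.33 in Hey1 uninduced cells. Predicted genes and clone names left out, it was also the compared gene nearest to Jarid2. The measure was the Euclidean distance of the 4 mean-centred values (0.023, against a median of 0.58). Bid (0.024), Ube3b (0.031), Trim35 (0.038) and Dzip1 (0.044) followed. With 4 arrays many genes can share a pattern. The neighbours of Mtf2 on chromosome 5 had medians of -0.23 in induced and -0.17 in uninduced cells, with 3 and 2 of 10 above 0, against 0.011 and 0.046 over all compared genes of that chromosome. The neighbours of Ezh2 on chromosome 6 had medians of -0.22 in induced and -0.20 in uninduced cells, against -0.056 and 0.016 over that chromosome. Of these 10 neighbours 2 and 2 were above 0. Mtf2 and Ezh2 had the lowest neighbour medians of the 10 members in induced cells. For the members not named here these medians ran from -0.048 (Ezh1) to 0.13 (Phf1) in induced cells. In uninduced cells they ran from -0.20 (Rbbp7) to 0.12 (Rbbp4).

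Other genes of the Polycomb system were set beside the subunits. In the test of the common response and in that of the lines, 0 genes of these lists passed over all genes. All 6 further PRC2 partners were compared, with medians of 0.0092 for the Hey2 line and 0.012 for the Hey1 line. Ezhip, an inhibitor of the complex, read 6.31 in Hey2 induced, 6.32 in Hey2 uninduced, 6.60 in Hey1 induced and 5.85 in Hey1 uninduced cells, the last below the filter. Epop, an elongin-binding partner of the complex in stem cells, was lower in induced cells of the Hey2 line by 0.23 and of the Hey1 line by 0.25.

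PRC1, the complex that ubiquitinates histone H2A and reads the mark of PRC2, had 20 of its 24 listed genes compared. Their median difference was -0.018 in the Hey2 line, with 10 above 0, and -0.090 in the Hey1 line, with 5 above 0. Bcor, a corepressor in a variant form of PRC1, had the largest difference among them. It read 6.65 in Hey2 induced, 7.68 in Hey2 uninduced, 7.16 in Hey1 induced and 7.55 in Hey1 uninduced cells. All 3 Bcor probe sets were lower on the induced arrays, by about 1.0 log2 unit in the Hey2 line (-1.03 at the representative) and by 0.39 to 0.64 in the Hey1 line. At 2-fold or more in the Hey2 line it belongs to 0.926% of all genes, and its adjusted p in the common response was 0.310 by limma.

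The lysine 27 demethylases and the methyltransferases that oppose Polycomb had 10 of 11 genes compared, with medians of 0.040 for the Hey2 line and -0.11 for the Hey1 line and no gene at 1.5-fold. The largest mean absolute differences were those of Kmt2c (0.25 and -0.22), a methyltransferase of lysine 4, and Setd2 (0.28 and -0.050), that of lysine 36. Of the other complexes that contain RBBP4 or RBBP7, 19 of 21 listed genes were compared, with medians of 0.036 for the Hey2 line and 0.012 for the Hey1 line. Smarca1, a chromatin remodelling ATPase of a complex with RBBP4, had the largest differences among them (1.36 and 0.44). It read 8.56 in Hey2 induced, 7.19 in Hey2 uninduced, 9.17 in Hey1 induced and 8.73 in Hey1 uninduced cells. The Hey2 uninduced array was lowest, as for Mtf2, and the adjusted p in the common response was 0.316 by limma.

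Developmental genes known as Polycomb targets were mostly at low values. Of 58 listed, 53 had a single-symbol probe set and 21 reached the filter, so medians are given for all 53. The median was -0.16 in the Hey2 line, with 16 above 0, and -0.034 in the Hey1 line, with 21 above 0. Over all 18194 genes without the filter the medians were -0.036 in the Hey2 line, with 43.4% above 0, and -0.0085 in the Hey1 line, with 47.9% above 0. In the Hey2 line 4 of the 53 were lower at 1.5-fold or more (2.13% of all 18194 genes) and 1 higher (2.56%), and in the Hey1 line 0 were lower (0.572%) and 0 higher (1.64%). Without the filter the marker lists of other cell types also had medians below 0 in the Hey2 line, with -0.12 for fibroblasts, -0.13 for endoderm, -0.24 for mesoderm, -0.090 for neuroectoderm and -0.065 for trophoblast. Their part in the median of the Polycomb targets was not tested, and the lists share some genes. Nkx2-5, a cardiac transcription factor gene, read 5.75 in Hey2 induced, 6.50 in Hey2 uninduced, 5.71 in Hey1 induced and 6.23 in Hey1 uninduced cells. Foxf1, of the lateral mesoderm, read 6.59 in Hey2 induced, 7.32 in Hey2 uninduced, 6.63 in Hey1 induced and 6.94 in Hey1 uninduced cells. Both were lower on the induced array of each line. Nkx2-5 reached the filter through its uninduced arrays alone, so its difference is given without a test, and Foxf1 had an adjusted p of 0.309 by limma. At the other probe set of Foxf1 the values were below the filter, with differences of -0.18 and 0.074.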

How the data were processed

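The authors deposited log2 probe set values made with RMA, per the submitters' processing notes; the sources used here do not give its version or the array's build. Values between 2.67 and 15.2 fit a log2 scale. Their sorted values agreed between arrays within 0.0024. Depth has no counterpart in arrays, and their number limits the precision.

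Samples were grouped by title. Probe sets with several gene symbols (932) or none (9211) were left out. Differences were computed on representative probe sets for the 12098 genes that reached 6.05, and 2-fold and 1.5-fold were counted. limma 3.58.1 in R 4.3.3 (lmFit, eBayes, additive in line and induction, Benjamini-Hochberg over all genes compared) gave the tests, and was tested on simulated data. Python 3.11.15 with pandas 2.3.3 was used otherwise. All 10 gene identifiers matched RefSeq (GRCm38.p6), whose order of genes gave neighbours. All members were named. Of each gene list other than the cell type markers, genes at 2-fold in a line or at 1.5-fold in the same direction in both were named. At most 6 were, else the 2 with the largest mean absolute difference. Of the markers, Sox7 (1.18 in the Hey2 and 0.48 in the Hey1 line) and Sox1 (-1.07 and -0.78) also met that rule on induction. Sox7, of the endoderm, reached the filter through its induced arrays alone, so its difference is given without a test. Ranbp9, Sirt5, Thy1, Sox1, Nanog, Klf4 and Tfcp2l1 were singled out after their values were seen, as was the sum without Thy1. The probe set agreement, the genes most like Jarid2, the order of groups, the chromosome and neighbour medians, the promoter search and the medians without the filter were added after the data were seen. Members and lists were chosen with earlier results of these data known.

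Alternatives were no filter, a filter at the 75th percentile (8.31), cyclic loess, median centring, an offset of 32, the mean of probe sets, leaving out _x_at and _s_at probe sets, every probe set alone, the other line's uninduced array, a trended robust prior, no block, and leaving out each array.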

Additional observations from a re-analysis of the deposited data

Results flagged for a closer look

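Of the members, 3 had induced minus uninduced differences of opposite sign in the lines, a difference that was not tested. For Mtf2 the Hey2 line gave 0.21 and the Hey1 line -0.055, 0.26 apart on the log2 scale, but 5 of its 6 probe sets were above 0 in the Hey1 line. For Suz12 the Hey2 line gave 0.091 and the Hey1 line -0.096, 0.19 apart, with probe sets on both sides of 0 in both lines. For Phf1 the Hey2 line gave -0.11 and the Hey1 line 0.077, a gap of -0.19, at its only probe set.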

How the results depend on the processing

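In the Hey2 line, with 7 of 10 members above 0 reported, the alternatives gave from 5 of 9 (mean of probe sets) to 8 of 10 (other line's uninduced array). In the Hey1 line 6 of 10 were reported. There the number fell to 4 of 10 with the other line's uninduced array and to 4 of 8 with the 75th percentile filter. It was highest, 7 of 9, with the mean of probe sets. The median stayed above 0 in the Hey2 line (0.029 to 0.097), and lay below 0 in the Hey1 line with the other line's uninduced array (-0.061, otherwise 0.023 to 0.084). With the Hey1 uninduced array in place of the Hey2 one, 1 member (Jarid2, 0.62) reached 1.5-fold on the Hey2 induced array, where 0 did otherwise. Contrasts with the other line's uninduced array cross the lines, so they include the difference between the uninduced arrays. Signs turned for several members. Against the other line's uninduced array, Hey1 induced cells gave -0.43 for Jarid2, -0.15 for Phf19, -0.063 for Phf1 and 0.31 for Mtf2. Hey2 induced cells gave -0.16 for Mtf2, 0.029 for Phf1 and 0.014 for Rbbp4. The mean of probe sets gave -0.067 for Phf19 and -0.050 for Suz12 (Hey2 line) and 0.19 for Mtf2 (Hey1 line). Without _x_at and _s_at probe sets Jarid2 gave -0.045 (Hey2 line) and Rbbp7 -0.020 (Hey1 line). In the common response 0 members were called under any alternative, while all genes called numbered 4 with the 75th percentile filter, 433 with the trended robust prior and 0 to 5 when 1 array was left out. In the comparison of lines, 1 of 8 members (Jarid2) was called with the 75th percentile filter, beside 1864 of 7355 genes. With the trended robust prior 2 of 10 were (Jarid2 and Mtf2), beside 2933 of 12098 genes. These shares of members are not above those of all genes. Jarid2 alone was called with the mean of probe sets (554 of 10956 genes) and with the offset (1127 of 12098). When 1 array was left out 0 members were called. All genes called there numbered 111, against 0 with median centring, 540 with cyclic loess, 1864 with the 75th percentile filter, 554 with the mean of probe sets, 1127 with the offset, 2933 with the robust prior, 553 without _x_at and _s_at probe sets, 5 with no replicate block and 0 to 71 when 1 array was left out. Leaving out 1 array turned the sign of the common response for Jarid2 (-0.17 to 0.36), Mtf2 (-0.11 to 0.26), Phf19 (-0.020 to 0.41), Suz12 (-0.078 to 0.073) and Phf1 (-0.087 to 0.053), and kept it for Ezh1 (-0.17 to -0.028), Ezh2 (0.065 to 0.17), Eed (0.11 to 0.23), Rbbp4 (-0.068 to -0.0062) and Rbbp7 (0.060 to 0.12). Fits without 1 array had no block, and the array left alone in its arm was assumed to vary like the others. Moves against the other line's uninduced array include the difference between the uninduced arrays by construction, and the causes of the other moves were not tested. No paired analysis by replicate number was possible because each group has 1 array; without the block of line the common response again called 0 genes.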
